A study of Mus musculus with 6 samples.

Results

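The epidermal growth factor receptor gene Egfr and 3 genes of its ligands, Egf, Tgfa and Hbegf, were followed in scratched cultures of mouse skin fibroblasts. They were chosen by gene symbol, as the receptor and all of its ligands that the authors' wound healing PCR array carries, and make up 4 of its 84 wound healing genes. The cells were primary dermal fibroblasts of neonatal C57BL/6 mice between passages 3 and 5. The control group (n = 3 arrays) received simple DMEM after the scratch, and the DS group (n = 3 arrays) received 2,4-dermatan sulfate, a sulfated polysaccharide of the ascidian Styela plicata. The dose of 50 µg/mL comes from the methods, since the labels list doses from 10 to 1000 µg/mL and assign none to a sample. Mitomycin C, which blocks proliferation, was present in both groups. The labels disagree on the duration, with 24 h of DS in the name of the source and 72 h in the treatment protocol, and the methods state a different time again, so it is not settled here. The groups are described as biological triplicates, but nothing says that the cultures came from separate animals. The p-values therefore refer to these 6 cultures alone. Those from limma, a linear model, also use a variance shared across genes, as described under the processing.

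The EGF receptor is a receptor tyrosine kinase. Its ligands are made as membrane-anchored precursors and are released by proteolytic shedding, after which receptor dimers signal through the MAP kinase, STAT3 and phosphatidylinositol kinase routes. In skin, TGF-alpha and heparin-binding EGF-like growth factor are known as products of keratinocytes that promote re-epithelialization, and fibroblasts carry the receptor. Heparin-binding EGF-like growth factor also binds heparan sulfate, a glycosaminoglycan related to dermatan sulfate. The array measures transcripts only and says nothing of shed ligand or of receptor activity.

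The measured value was the CT, the cycle at which a well's fluorescence becomes detectable above a set level. More template gives an earlier CT, and a difference of 1 cycle is a difference of 1 on the log2 scale at full amplification efficiency. Assays differ in efficiency, so a CT was compared between arrays and not between genes. A CT over 36, the cutoff of the study, or a well with no CT counted as not detected. Of the 89 gene assays, 26, 25 and 25 were detected in control arrays 1 to 3, and 60, 60 and 58 in DS arrays 1 to 3. Detection thus differed between the groups across the whole array, and its part in the results for single genes was not tested.

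The control wells also differed between the groups. The genomic DNA control had no CT in any control array, while in DS arrays 1 to 3 its CT was 33.08, 34.02 and 33.78. The 3 wells of the reverse transcription control hold the same assay, but they disagreed by 10.13 and 12.05 cycles in DS arrays 1 and 3. In control array 1 and DS array 2 only 2 of them gave a CT, 15.29 and 1.37 cycles apart, and in control arrays 2 and 3 only 1 did. None of the 3 positive PCR control wells of an array reached a CT, in control or in DS. Of the 5 housekeeping genes, Actb and B2m had no CT in the control arrays and a mean CT of 12.2 and 21.3 in the DS arrays. Gapdh had none in either group, and Gusb had only 41.10 in DS array 3, over the cutoff. The paper reports a DNAse step and an earlier quality control run on the RNA of each sample. It found no genomic DNA contamination in that run and no statistical variation of Actb. The part of the control and housekeeping wells of these arrays in the results below was not tested. Genes are named by well as in the deposited tables, and whether each CT stands beside its own gene could not be checked here, a limit that applies to every CT below.

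**Figure D1:**
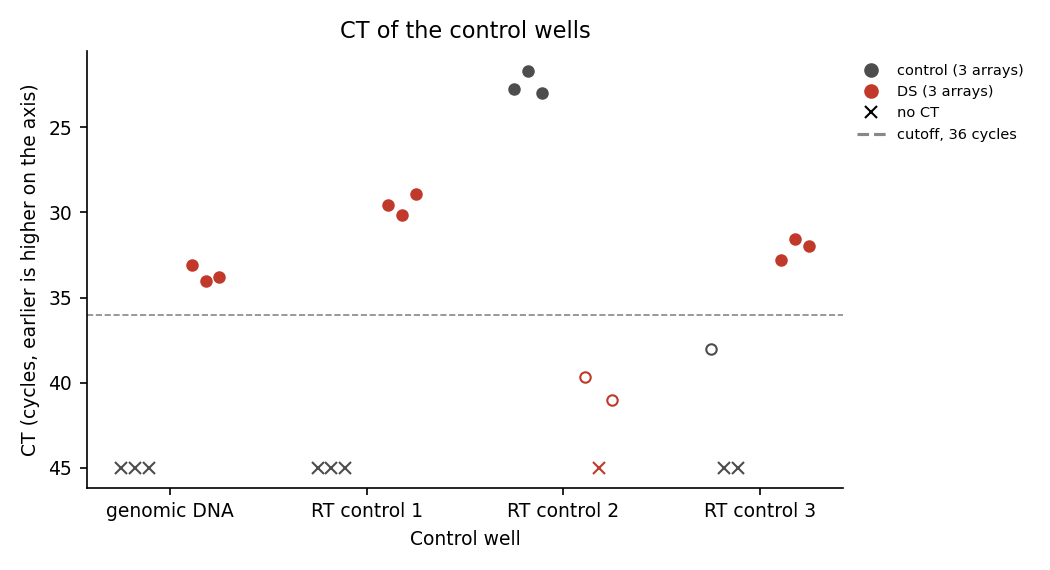
CT (cycles, axis turned so that an earlier CT is higher) of the genomic DNA well and the 3 reverse transcription (RT) control wells in each of the 6 arrays. Points are single arrays, open points lie over the cutoff of 36 (dashed line), and crosses at the foot mark wells with no CT. The genomic DNA well crossed the threshold only in the DS arrays, at 33.08 to 34.02 cycles.

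The receptor was detected in every culture and was modestly higher in DS. The Egfr CT was 32.35, 33.00 and 32.52 in control arrays 1 to 3 and 31.91, 32.08 and 31.79 in DS arrays 1 to 3. All 3 DS values were earlier than all 3 control values, and 0.27 cycles separated the nearest pair. In control the mean was 32.6 ± 0.337 cycles (SD, n = 3), and in DS it was 31.9 ± 0.146 cycles (SD, n = 3). Egfr is itself among the 3 genes (Hsp90ab1, Ccl7 and Egfr) to which the study normalized, so its level was taken here relative to Hsp90ab1, a chaperone gene, and Ccl7, a chemokine gene, alone. On that scale Egfr was 2.04-fold higher in DS, a log2 difference of 1.03 with a standard error of 0.391 and a 95% confidence interval from 0.17 to 1.89 (adjusted p = 0.0248, limma). The exact permutation test gave 0.1, the smallest two-sided p that 3 arrays against 3 allow. In the same comparison 75.0% of the 64 tested genes were called higher, so a call of this direction was the common outcome on these arrays.

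The Egfr call was not stable. With Egfr kept among its own normalizers the log2 difference was 0.69, and the call was lost then. It was also lost without control array 2 (0.785), without control array 3 (1.015) or without DS array 3 (0.92). Over all alternatives the adjusted p lay between 1.30e-07 and 0.0986 (limma). The smallest came from the 5 housekeeping genes as reference, where the difference was negative. Normalization to the median of 17 assays detected in all 6 arrays gave 3.64. Normalization to the 5 housekeeping genes turned the direction, to −6.94, because it lowers every log2 difference on the array by the same amount. That shift was −7.62 relative to the study's 3 normalizers. It rests on Actb, B2m, Gapdh and Gusb set to the cutoff in control, so −6.94 is not a measured size. According to the paper, the normalizers were selected automatically on these same arrays, among genes at baseline concentrations in both groups. The small size of the Egfr difference is therefore not independent evidence of a steady level. Relative to the median of the 18 tested genes detected in both groups, which was 2.23 with the study's 3 normalizers, the Egfr difference was −1.545 on the log2 scale, and which genes enter that median depends on the cutoff. The part of genomic DNA in the DS signal of Egfr was not tested.

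**Figure D2:**
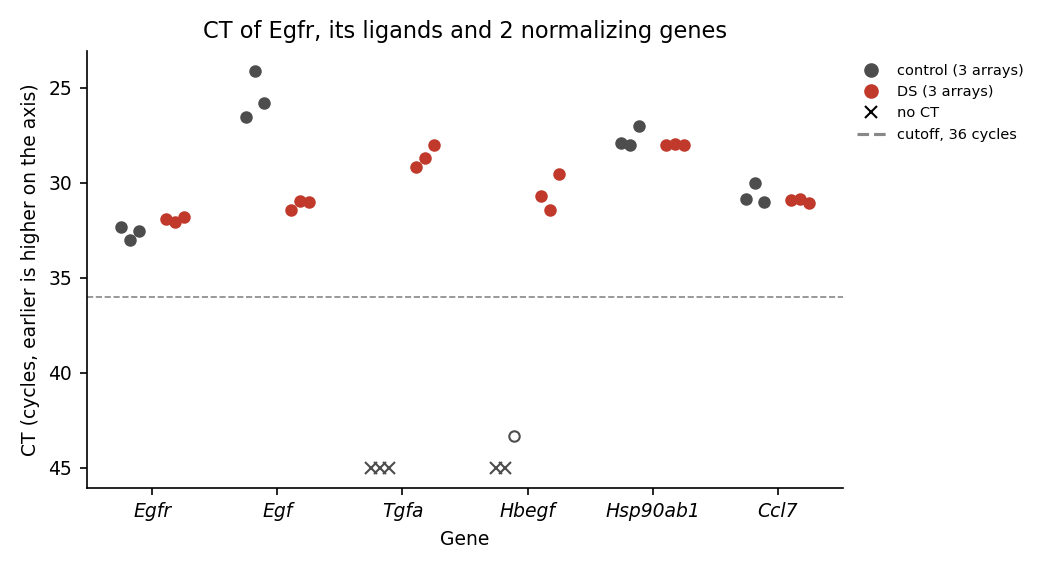
CT (cycles, axis turned so that an earlier CT is higher) of Egfr, Egf, Tgfa, Hbegf and the normalizing genes Hsp90ab1 and Ccl7. Points are single arrays, open points lie over the cutoff of 36 (dashed line), and crosses at the foot mark wells with no CT. Egf is early in control and late in DS, while Tgfa and Hbegf are detected only in DS.

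Egf, the gene of the ligand that gave the receptor its name, went the opposite way. Its CT was 26.54, 24.11 and 25.82 in control arrays 1 to 3 and 31.43, 30.99 and 31.00 in DS arrays 1 to 3. The groups lay far apart, with 4.45 cycles between the latest control and the earliest DS value. The control mean was 25.5 ± 1.25 cycles (SD, n = 3), whereas the DS mean was 31.1 ± 0.251 cycles (SD, n = 3). Control array 2 stood out as the earliest, and the range of 2.43 cycles among the control arrays is worth a 5.39-fold difference, against 1.36-fold among the DS arrays.

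Relative to the study's 3 normalizers, Egf was 50.6-fold lower in DS. The log2 difference was −5.66 with a standard error of 0.593 and a 95% confidence interval from −7.03 to −4.29 (adjusted p = 1.86e-05, limma, and 0.1 in the exact permutation test). Only 20.3% of the 64 tested genes were called lower in that fit, whereas 71.9% were called higher. Egf was among 6 genes called lower that were detected in both groups, and for the other 7 the DS value was only a bound. Its direction was downward under every normalization run, but the size was not fixed. It was −2.71 with the median of the 17 assays and −4.945 without control array 2. With the 5 housekeeping genes it was −13.28, which is not a measured size, since Actb, B2m, Gapdh and Gusb were set to the cutoff in control. The methods' test of each gene on the linear scale did not call it. Less RNA per cell and fewer cells that express a gene cannot be told apart in these bulk cultures. The genomic DNA control had no CT in the control arrays, where Egf was high, and its part in the remaining DS signal was not tested.

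To place both genes that were detected in all 6 arrays, the 150 bases upstream of their annotated start are shown 5′ to 3′ (RefSeq, build GRCm38.p6). The Egfr stretch is chr11:16752053-16752202 on the plus strand and the Egf stretch is chr3:129755323-129755472 on the minus strand, at the outermost of 2 starts listed for Egf. Capitals mark the GC box GGGCGG, searched on both strands.
Egfr: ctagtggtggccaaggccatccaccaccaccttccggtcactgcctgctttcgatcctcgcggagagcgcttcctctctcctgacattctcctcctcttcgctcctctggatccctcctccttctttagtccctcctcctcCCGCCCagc
Egf: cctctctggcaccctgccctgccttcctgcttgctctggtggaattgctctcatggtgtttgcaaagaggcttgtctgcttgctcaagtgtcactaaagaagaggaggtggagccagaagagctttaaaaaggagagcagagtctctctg
The GC content was 61.3% for Egfr and 52.0% for Egf, beside a median of 54% over 32851 windows of this length. Egfr held 1 GC box, on the strand opposite to the one printed, and Egf held none, while 28.6% of all windows hold at least 1. Neither stretch held TATAAA, present in 7.57% of windows, or the AP-1 motif TGANTCA, present in 4.24%, on either strand. These letters are a description of the windows, and no measurement of the array bears on them.

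Tgfa, which encodes TGF-alpha, was detected only in DS. No control array gave a CT, and the CT was 29.20, 28.71 and 28.03 in DS arrays 1 to 3, with a mean of 28.6 ± 0.588 (SD, n = 3). Since the control level was not measured, the difference is a bound against a CT of 36. Relative to the 3 normalizers Tgfa was at least 162-fold higher in DS, a log2 difference of at least 7.34 (adjusted p = 1.08e-07, limma, and 0.1 in the exact permutation test). For such a gene limma takes the cutoff itself as the control reading, in its p and standard error alike, and the gene was tested only because DS detected it, so the limma p adds nothing to the detection in DS alone. The bound moves with the cutoff and was 6.34 at a cutoff of 35 and 11.34 at a cutoff of 40. Detection in DS alone was common on the array and held for 39 of the 64 tested genes.

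Hbegf, which encodes heparin-binding EGF-like growth factor, showed the same pattern with more spread. Control arrays 1 and 2 gave no CT and control array 3 gave 43.30, over the cutoff. In DS arrays 1 to 3 the CT was 30.72, 31.43 and 29.57, with a mean of 30.6 ± 0.939 (SD, n = 3) and a range worth a 3.63-fold difference. Hbegf was at least 42.7-fold higher in DS, a log2 difference of at least 5.42 (adjusted p = 5.17e-06, limma, and 0.1 in the exact permutation test). The limma p has the same limit as that of Tgfa. The bound was 4.42 at a cutoff of 35 and 9.42 at a cutoff of 40, and the methods' test on the linear scale did not call the gene. With the 5 housekeeping genes as normalizers the values fell below 0, to −0.28 for Tgfa and −2.21 for Hbegf. In control both genes, and Actb, B2m, Gapdh and Gusb among the normalizers, were set to the cutoff. These values are therefore no bounds, and the direction of both genes is undetermined there.

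The genomic DNA well, like Tgfa and Hbegf, crossed the threshold before cycle 36 in DS alone, and its part in their signal was not tested. Egf, Tgfa and Hbegf thus did not move as a block, since 1 ligand transcript was lower and the other 2 were higher in DS under the study's normalizers.

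**Figure D3:**
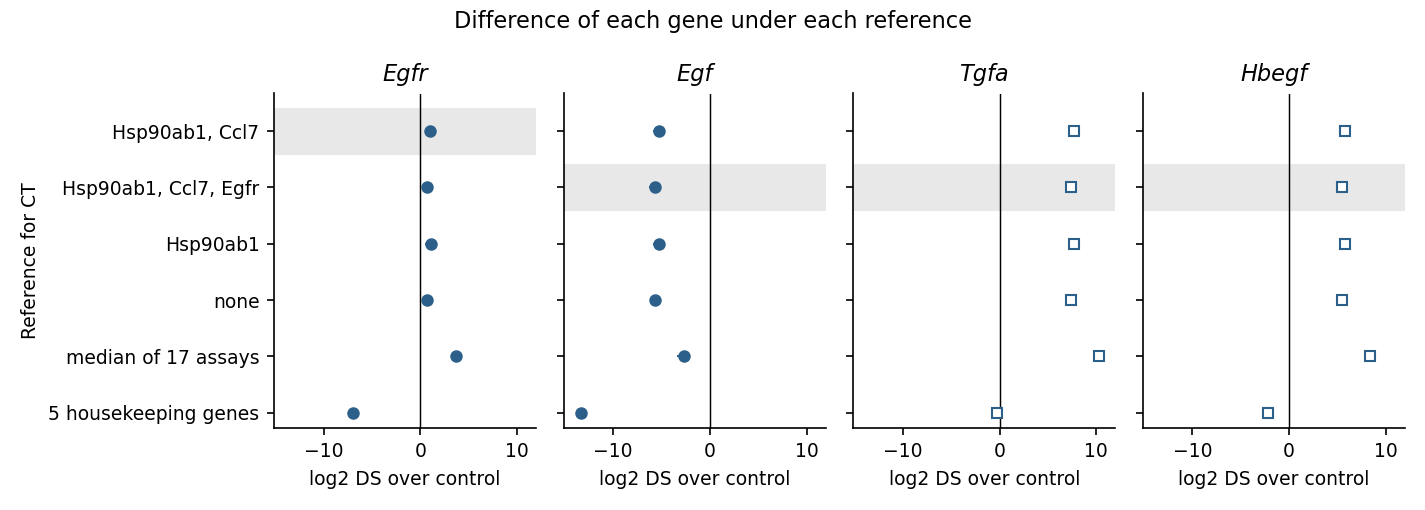
Log2 difference between DS and control (horizontal axis) of each gene under 6 references for CT (vertical axis), with bars of 1 standard error that are often narrower than the symbol. Filled points are measured differences and open squares are bounds against the cutoff. Neither holds with the 5 housekeeping genes, since Actb, B2m, Gapdh and Gusb were set to the cutoff in control. Grey bands mark the reference used for the values in the text. Egfr, Tgfa and Hbegf lie right of 0 except with the 5 housekeeping genes, where Egfr lies at −6.94 and the open squares of Tgfa and Hbegf left of 0 leave their direction undetermined, and Egf lies left of 0 throughout.

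Setting each ligand against the receptor in the same array asks how the ligand transcripts changed relative to that of the receptor, without Hsp90ab1 or Ccl7. In this comparison 68.3% of 63 tested genes were called higher in DS and 20.6% lower. The Egf level relative to Egfr was 5.81, 8.89 and 6.70 on the log2 scale in control arrays 1 to 3 and 0.48, 1.09 and 0.79 in DS arrays 1 to 3. The ratio of Egf to Egfr was therefore 81.4-fold lower in DS, a log2 difference of −6.35 with a standard error of 0.68 (adjusted p = 2.53e-06, limma). It was −5.47 without control array 2 and −7.01 without control array 1, and the methods' test on the linear scale did not call it. For Tgfa the ratio to Egfr was at least 101-fold higher, a log2 difference of at least 6.66 (adjusted p = 2.70e-08, limma). For Hbegf it was at least 26.5-fold higher, a log2 difference of at least 4.73 (adjusted p = 1.79e-06, limma), not called by the methods' test after adjustment. Both limma p again take the cutoff as the control reading. Moving from the 3 normalizers to Egfr alone lowers every log2 difference by the same amount, so these directions are not a separate check.

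The centred CT profile of Egfr was compared with those of the other 16 assays detected in all 6 arrays. Most like it were Hsp90ab1, Ccl7 and the collagen gene Col5a2, with root mean square differences of 0.619, 0.722 and 0.778 cycles over the 6 arrays. The mean CT of Hsp90ab1 and Ccl7 was later in DS, by 0.35 and 0.32 cycles, while that of Egfr and Col5a2 was earlier. Hsp90ab1 and Ccl7 had been selected together with Egfr as normalizers on these same arrays, so their place in this order is not independent of that selection. Egf was most like the integrin genes Itga5 (1.65 cycles) and Itga4 (1.96 cycles) and the basement membrane collagen gene Col4a3 (2.59 cycles), each of them with a later mean CT in DS. No profile came as close to Egf as those 3 did to Egfr. Tgfa and Hbegf had too few values for such a comparison.

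Genes that relay signals downstream of the receptor were detected only in DS. All 6 listed genes were tested and called higher (limma), in a fit that called 71.9% of the 64 tested genes higher. On the log2 scale Mapk3, which encodes the kinase ERK1, was higher by at least 15.47, the transcription factor gene Stat3 by at least 16.45, and the small GTPase genes Rhoa and Rac1 by at least 10.37 and 6.00. None of the 6 was detected in any control array, a pattern shared by 39 of the 64 tested genes, so the direction of these calls followed from detection in DS alone and their count only describes the list. With the 5 housekeeping genes as normalizers 4 of the 6 were called higher, beside 17 higher and 39 lower of the 64 tested genes. Rac1 was −1.62 and not called. Of those normalizers Actb, B2m, Gapdh and Gusb had no CT in control and were set to the cutoff, as were the 6 genes. The values of the 6 are therefore no bounds there, and their direction is undetermined. With the methods' test on the linear scale 3 of the 6 were called higher at an unadjusted p and 1 after adjustment. Of the 64 tested genes 36 and 27 were called higher in the same way.

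Genes known from other systems to respond to EGF receptor signalling did not share a direction. Of 7 listed genes 6 were tested, of which 3 were called higher, 2 lower and 1 not. Over all 64 tested genes 71.9% were called higher and 20.3% lower, so both directions were present on the array as a whole. Ptgs2, which encodes the inducible cyclooxygenase, was detected in both groups, with a CT from 23.71 to 25.12 in control and from 9.32 to 10.49 in DS, and was higher by 14.20 on the log2 scale (adjusted p = 9.93e-09, limma). The angiogenic factor gene Vegfa was lower in DS, its CT being 19.72, 18.00 and 21.53 in control and 32.56, 31.31 and 30.78 in DS, a log2 difference of −11.81 (adjusted p = 1.95e-06, limma). The collagenase gene Mmp1a was detected only in control and had a bound of −12.69. The gelatinase gene Mmp9 and the urokinase receptor gene Plaur were detected only in DS, with bounds of 7.41 and 8.90. Urokinase itself (Plau) was measured at 35.39, 35.70 and 36 in DS, next to the cutoff, and its value of 0.29 was not called, although it was called higher at a cutoff of 40 (4.29) and with the median of the 17 assays as reference (3.25). With the methods' test on the linear scale, 1 gene of this list was called higher and 0 lower, with or without adjustment. Over all 64 tested genes that test called 36 higher and 9 lower unadjusted, and 27 and 9 after adjustment. With the 5 housekeeping genes 1 was called higher and 3 lower, beside 17 higher and 39 lower of all 64 tested genes. Plau was 1 of the 3, at −7.33, and Mmp9 (−0.22) and Plaur (1.27) were not called. Plau, Mmp9 and Plaur were detected only in DS, so their direction is undetermined there.

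Ligands of other receptor tyrosine kinases were likewise divided. Of 8 listed genes 7 were tested, of which 4 were called higher and 3 lower (limma), beside 46 higher and 13 lower among all 64 tested genes. The fibroblast growth factor genes Fgf2 and Fgf10 and the insulin-like growth factor gene Igf1 were detected in both groups and rose by 7.82, 3.97 and 3.86. In control arrays 1 to 3 the Fgf2 CT was 35.19, 35.12 and 36.01, the last over the cutoff and set to it. For Fgf10 it was 35.23, 34.92 and 35.62. Both rises therefore rest on control values next to the cutoff. At a cutoff of 35 no control array detected Fgf2, and its bound was 7.38. Fgf7 was detected only in DS, with a bound of 11.70. Vegfa, the hepatocyte growth factor gene Hgf and the angiopoietin gene Angpt1 fell, with Hgf and Angpt1 detected only in control and bounded at −5.28 and −10.20. Pdgfa had no CT in any array. With the 5 housekeeping genes as normalizers, 1 gene of this list was called higher and 5 lower, beside 17 higher and 39 lower of all 64 tested genes. The 1 was Fgf7 (4.08), detected only in DS, so its direction is undetermined there. Fgf10 and Igf1 turned to −3.65 and −3.77, and Fgf2 was 0.19 and not called. The methods' test on the linear scale called 3 higher and 2 lower, with or without adjustment, and did not call Fgf10 or Vegfa. It called 36 higher and 9 lower of all 64 tested genes unadjusted, and 27 and 9 after adjustment. No test set the lists against each other.

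**Figure D4:**
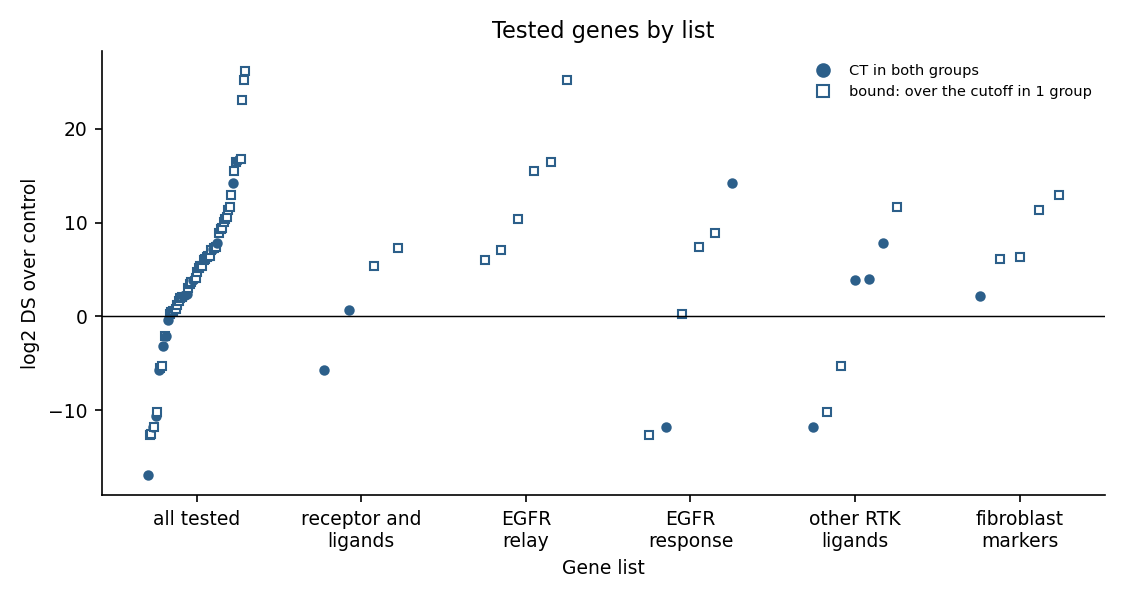
Log2 difference between DS and control (vertical axis, relative to Hsp90ab1, Ccl7 and Egfr) of all 64 tested genes, of Egfr with its ligands, and of 4 gene lists (horizontal axis). Filled points are genes detected in both groups, and open squares are bounds for genes over the cutoff in 1 group, whose heights follow the CT of each assay and are not compared between genes. With the 5 housekeeping genes as normalizers every value shifts by −7.62.

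Genes listed as markers of cell types moved between the groups as well. Only genes on the array could be listed, and several, among them Itgb6, are not limited to the cell type named. Of 5 fibroblast markers, Col1a1, Col1a2, Col3a1 and Mmp2 were not detected in the control arrays and only Col5a2 was, while all 5 were detected in every DS array. Detection in DS alone held for 39 of the 64 tested genes. The sums below add assays of unequal efficiency and take undetected genes at the cutoff, so they only describe the arrays. Their summed log2 level, relative to the 3 normalizers and led by Col5a2, was 6.61, 6.30 and 6.87 in control and 9.02, 9.28 and 9.65 in DS. The cells are fibroblasts by the way they were isolated, and in the control arrays, where Actb, B2m and Gapdh had no CT either, 1 marker of 5 was detected. For the myofibroblast, Tagln was detected only in DS and Acta2 in no array, and the summed level was −4.63, −4.65 and −4.82 in control, which is the cutoff alone, and 16.21, 18.29 and 17.67 in DS. Among 3 epithelial markers only the integrin gene Itgb6 was detected, at a CT from 9.61 to 10.04 in DS and with no CT in control, and the defining marker Cdh1 was not detected in any array. The summed epithelial level, all from Itgb6 in DS, was −4.04, −4.07 and −4.24 in control, where it only reflects the cutoff, and 20.24, 20.68 and 20.53 in DS.

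Genes listed as markers of blood cells also differed between the groups, though Il1b and Tnf are not limited to such cells. Of 4 lymphocyte markers, Ifng was detected in both groups, Cd40lg only in DS, Il4 only in control and Il2 in no array, and the summed level, led by Ifng, was 1.09, 0.38 and 1.29 in control and 7.24, 9.29 and 7.49 in DS. Of 3 myeloid markers, Il1b and Ctsg were detected only in DS and Tnf in no array, and the summed level, led by Il1b, was −4.04, −4.07 and −4.24 in control, again the cutoff alone, and 4.06, 5.30 and 5.38 in DS. With the 5 housekeeping genes as normalizers, which shift every log2 difference by −7.62, Col5a2 turned to −5.45 and Ifng was −0.43 and not called. The values of Cd40lg (−3.54), Col3a1 (−1.53), Mmp2 (−1.32) and Ctsg (−6.42) fell below 0 there. Direction is undetermined under those normalizers for every marker detected only in DS, whatever the sign. The part of other cell types in the levels of Egf, Tgfa and Hbegf was not tested.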

How the data were processed

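Each of the 6 samples was run by the authors on its own SYBR Green array in a ring of 100 wells, with a CT cutoff of 36, and the supplier's web portal picked the normalizing genes. The deposited CT are raw, 1 per array for each of 96 wells, and those of the 4 wells without template are not among them. The authors also deposited, for each group, a mean expression ratio to the normalizing genes, which carries no spread. With a geometric mean over the normalizing CT, that deposited ratio was matched here to within 0.00242% in control and 0.00204% in DS.

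From the deposited CT, values over 36 or absent were set to 36, the arithmetic mean CT of the normalizing genes was subtracted in each array, and the sign was reversed, which gives a log2 scale. The 64 wound healing genes detected in at least 1 array entered a linear model with empirical Bayes moderation (limma 3.58.1 under R 4.3.3). Two-sided p-values received the Benjamini-Hochberg adjustment across all of these genes, and 0.05 or less was called. Figures were drawn with matplotlib 3.10.9. With Egfr as the normalizer 63 genes remained. A gene not detected in any array of a group has a bound. Of the 64 genes 39 were detected only in DS and 7 only in control. The moderation shares variance across all tested genes. The limma p of a gene detected in both groups therefore also draws on wells set to the cutoff. The moderated test replaced the study's test of each gene alone, which was run as an alternative. The code was tested on simulated data with the same spread for every gene and no undetected wells. That test therefore did not cover groups set to the cutoff.

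The text names Egfr and its ligands, the genes of 3 pathway lists, cell type markers, control genes and the closest CT profiles. The members and lists were chosen with earlier results of these data known. Results for some single genes of the lists are not reported here, and these genes are counted in the totals. Alternatives were other normalizers, cutoffs of 35 and 40, other filters, the study's test, a replicate block, the deposited ratio and each array left out. A PCR array has no sequencing depth, and the number of arrays limits the precision.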

Additional observations from a re-analysis of the deposited data

Results flagged for a closer look

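A CT appeared in 3 control wells of the DS arrays that gave fewer or none in the control arrays. The genomic DNA control had a mean CT of 33.6 ± 0.488 (SD, n = 3) in DS and no CT in control. The first reverse transcription control well had a mean CT of 29.6 ± 0.615 (SD, n = 3) in DS and no CT in control. The third such well had a mean CT of 32.1 ± 0.617 (SD, n = 3) in DS and a CT in 1 control array, at 38.03. The second well ran the other way, with 22.74, 21.68 and 23.00 in control arrays 1 to 3, and 39.69, no CT and 41.00 in DS arrays 1 to 3.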

How the results depend on the processing

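Normalization to the 5 housekeeping genes turned the direction for Egfr (−6.94), Fgf10 (−3.65) and Igf1 (−3.77). In it Actb, B2m, Gapdh and Gusb, without a CT in control, were set to 36 there. Gapdh and Gusb were set to 36 in DS as well, so only Hsp90ab1 was measured in both groups. The values of Tgfa (−0.28), Hbegf (−2.21), Rac1 (−1.62), Mmp9 (−0.22) and Plau (−7.33) fell below 0, and Tgfa, Rac1 and Mmp9 were not called. Under this reference the value of a gene detected only in DS is no bound, since gene and reference both rest on the cutoff in control. The direction of such a gene is undetermined whatever the sign. Normalization to these 5 genes gave 17 genes called higher and 39 lower (limma), against 46 and 13 with the study's normalizers. Of the 39, 19 were detected only in DS, so that their direction is undetermined. Only 16 genes were tested when detection in all 6 arrays was required, with 8 called higher and 6 lower. The methods' test on the linear scale called 36 higher and 9 lower unadjusted, and 27 higher and 9 lower after Benjamini-Hochberg adjustment. It did not call Egf (−5.66, and −6.35 relative to Egfr) or Hbegf (5.42) either way, nor Hbegf relative to Egfr (4.73) after adjustment.

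The Egfr difference was no longer called with Hsp90ab1 alone (1.05), with the study's 3 normalizers (0.69) or when only genes detected in all 6 arrays were tested (1.03). With only those genes its standard error was 0.486 (adjusted p = 0.0544, limma), against 0.391 in the main fit. With each array left out in turn it lay between 0.785 and 1.29, and the call was lost in 3 of these 6 fits. The cause was not tested.

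The replicate numbers of the labels did not pair the arrays, since the correlations of same-numbered deviations over 17 assays were 0.0832, 0.0506 and −0.199. With the replicate block the Egfr difference relative to Hsp90ab1 and Ccl7 was 1.03 (adjusted p = 0.0433, limma). In the fit with the study's 3 normalizers the replicate block gave 45 genes called higher and 13 lower. The block changed no call of Egfr or its ligands. Apart from the settings above, Egf, Tgfa and Hbegf kept their direction in every alternative run, and their call in each one that has a test, which the deposited ratio lacks. The bounds depend on the cutoff by construction, and Egfr at 31.79 to 33.00 cycles lay closer to it than Egf did.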

Other observations

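Of the 285 CT values of gene assays, 20 were whole numbers to the 2 decimals deposited (7.02%), 7 of 89 in control and 13 of 196 in DS. Among the 19 CT of Egfr and its ligands 2 were whole, the Egfr value of control array 2 and the Egf value of DS array 3. This property was looked at after the values had been seen. The SD of Egf among the control arrays, 1.25 cycles, was the second largest of the 17 assays detected in all 6 arrays, after that of Vegfa at 1.77 cycles, and the median was 0.405. In DS the SD of Egf was 0.251 cycles, below the median of 0.607.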
